A study of Mus musculus with 16 samples.

Results

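Promoters that carried a peak of dimethylated histone H3 lysine 4 (H3K4me2) in vehicle-treated CD8+ T cells and none after inhibition of LSD1 were described. A promoter was a window reaching 1 kb to each side of a transcription start site (TSS), taken once for every distinct TSS among curated RefSeq transcripts (mm10). The members were chosen by the H3K4me2 calls themselves. Of 31603 such windows, 4047 (12.8%) overlapped, by at least 1 base, an H3K4me2 peak of the vehicle (Veh) list and no H3K4me2 peak of the GSK list. Another 8038 promoters had H3K4me2 in both lists, 606 (1.92%) in the GSK list only and 18912 in neither. The 4047 promoters belonged to 3474 genes, and 132 of these genes (3.8%) had a GSK H3K4me2 peak at another of their TSSs. Protein-coding transcripts began at 89.7% of the 4047 and at 82.3% of all promoters.

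CD8+ T cells came from the spleens of OT1 mice, in which a transgene gives T cells 1 receptor specific for an ovalbumin peptide. They were activated for 48 h by antibodies to CD3 and CD28 with IL-2 and then expanded for 3 days in IL-2. GSK2879552 (GSK), an irreversible LSD1 inhibitor, was present at 0.5 μM throughout, or vehicle replaced it. ChIP-seq peak lists were available for 6 antibodies (RNA polymerase II, written Pol II, LSD1, H3K27ac and the 3 methylation states of H3K4), with 1 library for each antibody and treatment. There are no replicates, so no test or p-value is given, and a difference between the treatments is a difference between 2 libraries. The intervals in brackets are Wilson 95% intervals, which cover counting error only. Neighbouring TSSs can share a peak (the 4047 promoters rested on 3065 distinct strongest Veh peaks), which makes these intervals too narrow. H3K4me3 peaks lay at the promoters of 9 of 9 CD8 T cell markers, Cd3e, Cd8a and Lck among them, in both treatments, and at Cd4 in neither. Of 6 B cell markers 2 (Cd79b and Ebf1) had H3K4me3 in both treatments, and of 6 myeloid markers 3 (Cd14, Cebpa and Spi1) had it in Veh and 2 in GSK.

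Methylation of H3K4 is layered along a promoter. Trimethylation marks the nucleosomes next to the start site, dimethylation its shoulders and the body's first nucleosomes, and monomethylation the outer flanks and enhancers. LSD1 (KDM1A), a flavin-dependent demethylase found with CoREST and histone deacetylases, removes methyl groups from mono- and dimethylated H3K4 and cannot act on trimethylated H3K4. H3K27ac and Pol II accompany active promoters.

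RefSeq promoter sequences (GRCm38.p6, 250 bases before the TSS and 50 from it on) were found for 3173 of the 4047 (78.4%). The 8 below run 5′ to 3′ on the gene's strand with CpG dinucleotides in capitals. Rankings of single promoters by peak strength or width, here and below, leave out symbols of predicted genes. The promoters of Itga8 (chr2:12301895-12302194, minus strand), Kat7 (chr11:95310197-95310496, minus), Cchcr1 (chr17:35517003-35517302, plus) and Gtse1 (chr15:85859457-85859756, plus) had the most significant Veh H3K4me2 peaks of the remaining members. Tyw1 (chr5:130256787-130257086, plus) and Agpat1 (chr17:34605611-34605910, plus) had the largest gain and the largest loss of H3K4me3 width. Ccdc102a (chr8:94918049-94918348, minus) had the highest LSD1 fold enrichment of those with LSD1 in Veh only, and Mrpl42 (chr10:95501900-95502199, minus) of those with LSD1 in GSK only. The CpG number lay between 14 (Kat7 and Tyw1) and 24 (Cchcr1 and Agpat1).
Itga8: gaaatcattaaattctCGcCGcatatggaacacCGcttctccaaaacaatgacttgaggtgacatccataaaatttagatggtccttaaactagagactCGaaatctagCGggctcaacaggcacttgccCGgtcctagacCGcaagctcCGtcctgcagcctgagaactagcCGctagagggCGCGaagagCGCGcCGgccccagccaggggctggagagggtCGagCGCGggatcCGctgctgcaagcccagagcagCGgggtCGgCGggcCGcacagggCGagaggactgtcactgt
Kat7: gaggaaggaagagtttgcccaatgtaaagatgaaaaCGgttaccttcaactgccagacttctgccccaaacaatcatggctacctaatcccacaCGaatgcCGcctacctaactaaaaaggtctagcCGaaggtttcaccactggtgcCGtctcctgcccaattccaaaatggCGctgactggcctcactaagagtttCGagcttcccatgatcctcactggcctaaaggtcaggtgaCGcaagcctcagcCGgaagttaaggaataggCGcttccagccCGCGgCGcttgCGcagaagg
Cchcr1: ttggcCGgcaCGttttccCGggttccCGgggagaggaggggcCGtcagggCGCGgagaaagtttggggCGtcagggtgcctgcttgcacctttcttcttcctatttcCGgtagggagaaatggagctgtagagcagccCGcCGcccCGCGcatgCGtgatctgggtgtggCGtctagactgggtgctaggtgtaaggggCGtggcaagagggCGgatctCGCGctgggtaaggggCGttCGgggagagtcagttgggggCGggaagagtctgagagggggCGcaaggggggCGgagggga
Gtse1: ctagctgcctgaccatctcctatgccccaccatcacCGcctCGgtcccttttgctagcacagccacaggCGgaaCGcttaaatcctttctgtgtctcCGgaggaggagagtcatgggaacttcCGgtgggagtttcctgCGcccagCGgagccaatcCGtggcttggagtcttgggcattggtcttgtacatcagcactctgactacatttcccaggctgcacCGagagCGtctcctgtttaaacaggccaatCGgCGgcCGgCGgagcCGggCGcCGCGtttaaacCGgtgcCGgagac
Tyw1: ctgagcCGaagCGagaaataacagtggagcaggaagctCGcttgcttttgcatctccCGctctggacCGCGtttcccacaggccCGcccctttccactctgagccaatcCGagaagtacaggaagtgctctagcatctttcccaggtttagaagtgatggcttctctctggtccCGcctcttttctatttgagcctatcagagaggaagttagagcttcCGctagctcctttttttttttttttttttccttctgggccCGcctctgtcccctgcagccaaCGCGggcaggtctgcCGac
Agpat1: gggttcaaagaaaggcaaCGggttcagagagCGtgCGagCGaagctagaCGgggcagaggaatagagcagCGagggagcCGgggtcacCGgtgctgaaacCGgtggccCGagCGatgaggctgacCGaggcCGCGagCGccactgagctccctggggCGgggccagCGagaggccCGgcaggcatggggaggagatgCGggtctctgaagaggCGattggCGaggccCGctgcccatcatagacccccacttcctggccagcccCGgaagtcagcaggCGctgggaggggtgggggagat
Ccdc102a: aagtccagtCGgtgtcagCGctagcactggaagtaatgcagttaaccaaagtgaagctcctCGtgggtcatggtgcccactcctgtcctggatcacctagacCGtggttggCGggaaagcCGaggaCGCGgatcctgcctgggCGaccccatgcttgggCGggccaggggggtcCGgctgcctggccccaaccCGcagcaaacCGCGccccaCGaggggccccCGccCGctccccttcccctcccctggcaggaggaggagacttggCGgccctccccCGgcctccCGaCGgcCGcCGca
Mrpl42: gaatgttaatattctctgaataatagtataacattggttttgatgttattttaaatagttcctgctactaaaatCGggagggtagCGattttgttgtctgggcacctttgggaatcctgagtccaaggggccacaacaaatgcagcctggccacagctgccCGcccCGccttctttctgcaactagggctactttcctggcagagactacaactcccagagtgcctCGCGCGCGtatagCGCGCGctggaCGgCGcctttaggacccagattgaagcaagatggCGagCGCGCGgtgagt

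These promoters were mostly CpG rich. The ratio of observed to expected CpG was at least 0.6 at 72.2% of all 4047, against 77.6% of promoters with H3K4me2 in both lists and 44.1% of all promoters. These shares and those of the motifs used genome sequence at every TSS. The median CpG number in the 300 bases was 20, against 23 and 11. The letters CCGGAAG, on either strand, as bound by the ETS family, were present at 22% of them, at 15% of promoters with H3K4me2 in both and at 10.4% of all. The GC box letters GGGCGG went the other way, with 61.3% against 72.1% of promoters with both, and 43.2% of all. CCAAT stood at 35.6%, 36.2% and 37.3%, and TATAAA at 6.62%, 5.27% and 12.3%. At the 606 promoters with H3K4me2 in GSK only, CCGGAAG stood at 20%, GGGCGG at 66.8%, CCAAT at 38.6% and TATAAA at 7.1%. The higher CCGGAAG share was thus not particular to the 4047. None of these 4 motifs contains another. Kat7, Gtse1 and Agpat1 held CCGGAAG, and Itga8 held none of the 4.

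The Veh H3K4me2 peaks that chose these promoters were weaker than those kept. Their median fold enrichment, ChIP pileup divided by the local background, was 4.29, against 4.87 where both lists had a peak. Their median −log10 q was 4.74, against 6.73, and the median number of window bases under a peak was 490, against 793. Among promoters with Veh H3K4me2, the share with none in GSK went from 68% at −log10 q of 3 to 4 to 54.5% at 4 to 5, 30.4% at 5 to 7, 15.3% at 7 to 10 and 4.89% at 10 to 20. Above 20 it was 0 of 24, which allows a share of up to 13.8%. These values come from the same lists as the rule and are given without a test. The Veh H3K4me2 list held 15219 peaks and the GSK list 9437. When only the 9437 Veh peaks of highest −log10 q were kept, 1760 of the 4047 (43.5%) still had H3K4me2 in Veh only, 6494 promoters had both and 2150 had H3K4me2 in GSK only. The excess of Veh only over GSK only promoters therefore depended on the length of the lists. A peak list gives no depth, and the part of sequencing depth in these lengths was not tested. The lists describe cell populations, in which fewer marked cells and less mark per cell cannot be told apart.

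At the edge of the rule, the Veh peaks of Snora31, Cenpe and Fbrs reached only 1, 2 and 2 bases into the window, with −log10 q of 5.66, 5.34 and 6.01. The nearest GSK peaks beyond a window ended 0, 2 and 3 bases outside it, at Kif16b, Gm10910 and Slc5a6. Just outside the rule, a GSK peak covered 2 bases of the windows of Gm20753, Slc27a1 and Sphk1. A GSK peak lay within 100 bp of the window at 56 of the 4047 (1.38%) and within 1 kb at 174 (4.3%).

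The strongest peaks showed how varied these promoters were. At Itga8, encoding an integrin α chain, Veh H3K4me2 (chr2:12301616-12301988) had a fold enrichment of 10.5 and a −log10 q of 16.3, and the nearest GSK H3K4me2 peak lay 521714 bp away. Its other lists were H3K4me1 (fold 9.02 in Veh and 7.55 in GSK) and LSD1 (no peak in Veh and 4.63 in GSK), with no H3K4me3, H3K27ac or Pol II in either treatment. Itga8 thus looked unlike the majority described next. At Kat7, a histone acetyltransferase of the MYST family, H3K4me2 (chr11:95310956-95311413, upstream of the TSS) had fold 6.24 and −log10 q 13.5, and every other antibody had a peak in both treatments. Folds at Kat7 were 2.93 and 4.06 for LSD1, 3.88 and 4.56 for H3K4me1, 5.13 and 5.25 for H3K4me3, 6.58 and 5.04 for H3K27ac, and 6.5 and 6.27 for Pol II (Veh and GSK). Kat7 therefore kept its active marks. The Veh LSD1 peak at Kat7 had a −log10 q of only 1.19. Gtse1, a microtubule-associated protein gene of the G2 and S phases, had H3K4me2 of fold 6.39. It had 3 further peaks in Veh only, those of LSD1 (4.59), H3K27ac (5.06) and Pol II (3.61, with a −log10 q of only 1.86). Its H3K4me3 stood at fold 5.63 and 5.68. Zfr, an RNA-binding zinc finger gene, kept LSD1 (3.8 and 5.34), H3K4me1 (4.34 and 4.45) and H3K4me3 (4.74 and 4.81), and had H3K27ac (3.69) and Pol II (5.03) in Veh only. Styx, a catalytically inactive phosphatase gene, had LSD1 (4.45 and 4.17), H3K4me1 (4.41 and 4.59) and H3K4me3 (9.7 and 8.73) in both. Cchcr1, with a GSK peak 87 bp beyond the window, had LSD1 (3.27 and 4.1) and H3K4me3 (4.62 and 4.47) alone. The last 2 of the 8 strongest lay at the edge. At Fam166b and at Ltc4s, the leukotriene C4 synthase gene, a GSK H3K4me2 peak stood 8 and 18 bp outside the window, and neither promoter had H3K4me3.

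H3K4me3 was present at most of the 4047 promoters in both treatments. It covered 3671 in Veh (90.7%, 89.8 to 91.6) and 3730 in GSK (92.2%, 91.3 to 93). It was called in Veh only at 26 (0.642%; background 0.351% of all promoters) and in GSK only at 85 (2.1%; background 1.52%). The direction of this net change of 1.46 percentage points was not stable: with the 2 H3K4me3 lists cut to equal length it was −0.395. Of the 2005820 bases under member H3K4me2 within the windows, H3K4me3 peaks covered 73.7% in Veh and 73.6% in GSK. Most of the promoters without a GSK H3K4me2 call, 3645 of 4047, thus had H3K4me3 in both treatments.

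H3K4me1 and LSD1 were called at more of these promoters in GSK. H3K4me1 stood at 1752 in Veh (43.3%, 41.8 to 44.8) and 2190 in GSK (54.1%, 52.6 to 55.6), with 721 promoters in GSK only (17.8%; background 9.77% of all promoters) and 283 in Veh only (6.99%; background 3.51%). At promoters with H3K4me2 in both lists the shares were 65.1% and 75.4%. With H3K4me1 lists of equal length the difference at the 4047 was 3.43 percentage points in place of 10.8. LSD1 stood at 2468 in Veh (61%, 59.5 to 62.5) and 2856 in GSK (70.6%, 69.1 to 72), with 739 in GSK only (18.3%; background 9.92%) and 351 in Veh only (8.67%; background 4.51%). Of the promoters with Veh LSD1, 85.8% kept it, against 90.7% where H3K4me2 was in both lists. Promoters with H3K4me2 in both lists likewise stood at 71.3% and 81.5%. The GSK LSD1 list, with 19919 peaks, was shorter than the Veh list, with 21252.

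H3K27ac and Pol II were called at fewer of them in GSK. H3K27ac stood at 1841 promoters in Veh (45.5%, 44 to 47) and 758 in GSK (18.7%, 17.6 to 20), with 1111 in Veh only (27.5%; background 12.1%) and 28 in GSK only (0.692%; background 0.339%). The GSK H3K27ac list was far shorter (2751 peaks, against 7410 in Veh), and with lists of equal length the net change was −1.21 percentage points instead of −26.8. Every H3K27ac call in Veh only at a single gene, here and below, rests on these unequal lists. Pol II stood at 2490 in Veh (61.5%, 60 to 63) and 2093 in GSK (51.7%, 50.2 to 53.3), with 578 in Veh only (14.3%; background 7.08%) and 181 in GSK only (4.47%; background 2.84%). The Pol II lists were of nearly equal length, with 15638 peaks in Veh and 15401 in GSK. At promoters with H3K4me2 in both lists, H3K27ac stood at 23.5% in Veh and Pol II at 40.8%, below the 4047 in each case. In GSK they stood there at 7.88% and 33.8%. Of the 4047 with Veh H3K27ac, 39.7% kept it, against 31.1% where H3K4me2 was in both lists and 40.3% over all promoters. For Pol II these shares were 76.8%, 70.6% and 74.9%. The 4047 thus kept these calls about as often as all promoters did. The bar plot of shares by antibody shows the 3 classes side by side.

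**Figure D1:**
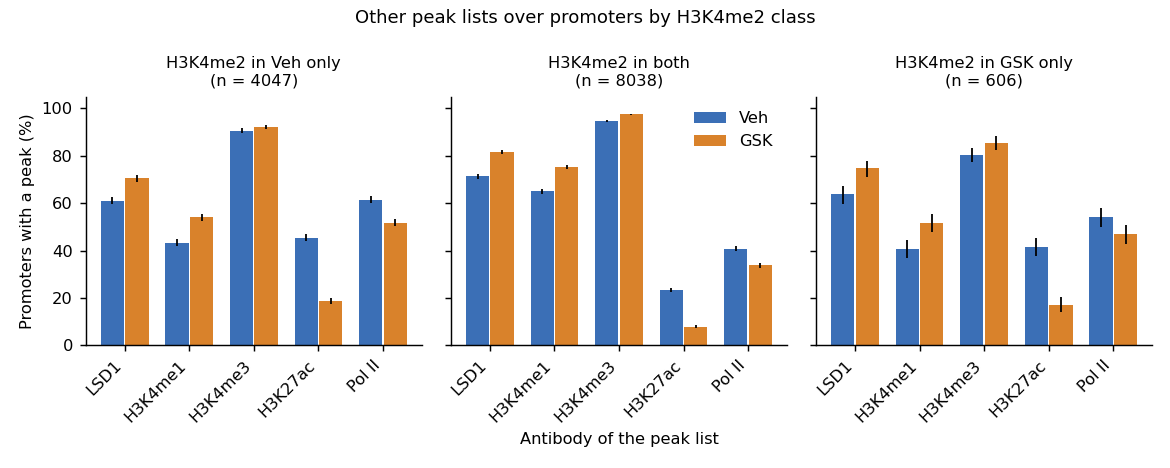
Percentage of promoters with a peak of each antibody (x axis) in Veh and GSK, for promoters with H3K4me2 in Veh only, in both and in GSK only; error bars are Wilson 95% intervals of 1 library each. H3K27ac and Pol II stood higher in the Veh only class (45.5% and 61.5% in Veh) than in the class with both (23.5% and 40.8%), and the GSK only class (41.6% and 54%) resembled the former.

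The commonest Veh pattern beside H3K4me2 was LSD1 with H3K4me3, H3K27ac and Pol II, at 797 of the 4047 (19.7%). The same 4 lists met at 325 (8.03%) in GSK. In GSK the commonest were LSD1 with H3K4me3 and Pol II (599, 14.8%, against 334 in Veh) and the same with H3K4me1 (575, 14.2%, against 231). Peaks of no other antibody were found at 62 promoters in Veh and 27 in GSK. These pattern counts have no share over all promoters beside them, so they are not read as particular to the 4047. Patterns with and without H3K27ac also rest on its unequal lists (7410 peaks in Veh and 2751 in GSK). Where LSD1 was called in both treatments, at 2117 of them, Pol II went from 75% to 65.2% and H3K4me1 from 36.9% to 49.8%. Where LSD1 was called in neither, at 840, Pol II went from 31.5% to 21.9% and H3K4me1 from 56.9% to 64%. The net change of Pol II was −9.78 and −9.64 percentage points, from a lower Veh share without LSD1.

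LSD1 was called at the promoter of Ccdc102a in Veh only (fold 9.5), beside Pol II at 4.99 in Veh and 2.72 in GSK and H3K4me3 at 6.35 and 6.05. Tigar, a fructose bisphosphatase gene, had LSD1 of fold 8.41 in Veh only and kept H3K4me3 (8.34 and 8.81) and Pol II (9.45 and 8.06). At the divergent pair Ift20, an intraflagellar transport gene, and Tnfaip1, which share a peak, LSD1 had fold 7.1 in Veh only and H3K4me1 fold 4.21 in GSK only. Pol II was called in both treatments at these 4 promoters, at Ccdc102a with a −log10 q of only 0.868 in GSK. Ldlrad4, with LSD1 of fold 7.79 in Veh only, had no H3K4me3, H3K27ac or Pol II in either treatment. Over all 351 promoters with LSD1 in Veh only, Pol II stood at 54.4% in Veh and 46.2% in GSK. The reverse, LSD1 in GSK only, was strongest at Mrpl42, a mitochondrial ribosomal protein gene. LSD1 had fold 8.11 there, H3K4me1 3.81 in GSK only, and H3K4me3 9.08 and 9.38. Rabgap1 and Zbtb26, again a divergent pair with shared peaks, had LSD1 of fold 7.14 in GSK only and Pol II of 4.54 in Veh only. Zkscan7, a zinc finger gene, had LSD1 of 7.22 in GSK only, and both its H3K4me1 (4.29) and Pol II (3.92) in Veh only.

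Pol II was called in Veh only at Rbm12b2 (fold 8.75), at Osbp, an oxysterol-binding protein gene (7.8), and at Extl3, a heparan sulfate glycosyltransferase gene (7.65). H3K4me3 was nearly level at all 3, with 7.62 and 7.32, 6.07 and 5.68, and 7.52 and 8.12. Fewer promoters went the other way. Pol II in GSK only was strongest at Agbl5, a deglutamylase gene (9.41), at Jund, an AP-1 subunit gene (8.32), and at Yipf4 (6.39). Jund had H3K4me1 (2.43 and 2.72) and no H3K4me3 within its window in either treatment. H3K4me1 appeared in GSK only, with the highest folds, at Mlf1 (6.46), at Psmd14, the deubiquitinase of the proteasome lid (6.11), and at Metap1, a methionine aminopeptidase gene (6.01). Psmd14 also had LSD1 in GSK only (4.23) and H3K27ac in Veh only (4.83). H3K27ac in GSK only was found at 28 promoters, led by Snx15, a sorting nexin gene (7.57), Fez2 (7.34) and Sgf29, a reader of methylated H3K4 in the SAGA complex (7.22).

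Within the window the H3K4me2 of these promoters lay toward the flanks. Coverage in 100 bp bins was highest at 350 bp downstream of the TSS, where 45.1% of the 4047 lay under a Veh H3K4me2 peak. At promoters with both it was highest at 250 bp, with 71%. The strongest Veh peak spanned the TSS at 36.5% (35.1 to 38) of the 4047, lay wholly downstream at 43.1% (41.6 to 44.6) and wholly upstream at 20.4% (19.2 to 21.7). Where both lists had a peak these shares were 59.3%, 31% and 9.72%. H3K4me2 at the 4047 was thus more often a flank than a cover of the start site. These positions come from the Veh peaks that chose the members. Those peaks were also narrower, with a median summed width of 630 bp against 891 bp, and positions were not matched on width. Pol II was highest at 50 bp, at 44% of them in Veh and 36.4% in GSK, and H3K4me3 at 150 bp, at 83.9% and 84.6%. H3K4me1 covered 17.9% of the member H3K4me2 bases in Veh and 21.7% in GSK (19.1% with H3K4me1 lists of equal length), and LSD1 24.8% and 30.1%. At promoters with H3K4me2 in both, coverage was higher and also rose, from 35.3% to 40.8% for H3K4me1 and from 38.5% to 48.5% for LSD1.

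**Figure D2:**
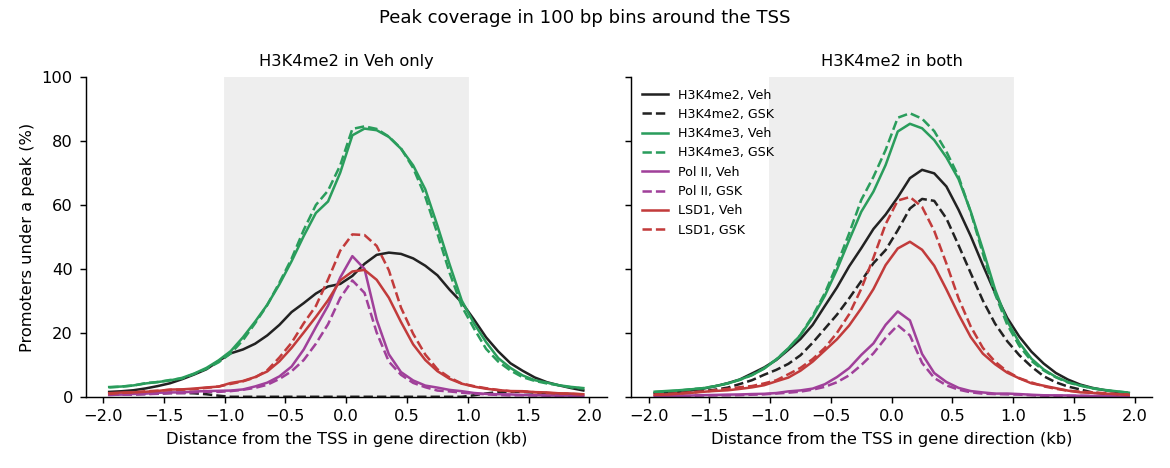
Percentage of promoters under a peak (y axis) in 100 bp bins by distance from the TSS in kb (x axis), for H3K4me2 in Veh only (left) and in both lists (right), with Veh as solid and GSK as dashed lines and the window of the rule shaded. In the left panel Veh H3K4me2 peaks at 45.1% 350 bp downstream, beyond the Pol II maximum at 50 bp, while in the right panel it reaches 71% at 250 bp.

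The width of H3K4me3 was compared at the 3645 of the 4047 promoters with H3K4me3 in both treatments, as the summed length of the peaks touching the window. The median was 1298 bp in Veh (quartiles 974 and 1656) and 1286 bp in GSK (970 and 1631). H3K4me3 was narrower in GSK at 2354 of them (64.6%, 63 to 66.1) and wider at 1276, against 60.1% narrower over all promoters with H3K4me3 in both. The median difference, GSK minus Veh, was −23 bp (−25 to −21), where promoters with H3K4me2 in both had −11 bp (−13 to −9), promoters with H3K4me2 in GSK only −32 bp (−39 to −25), promoters with H3K4me2 in neither −25 bp (−28 to −21) and all promoters −18 bp. The difference was small beside a median width above 1 kb, at −1.78% of the Veh width. It lay at the downstream edge, which moved by −18.5 bp in the median, against −3 bp upstream. Over all promoters these edges moved by −17 and −1 bp. A width change of 200 bp or more was rare, with 142 promoters narrower (3.9%; background 4.21%) and 178 wider (4.88%; background 7.18%). The fold enrichment of H3K4me3 went slightly up, from a median of 6.13 to 6.22. It went from 6.23 to 6.43 at promoters with H3K4me2 in both and from 5.9 to 6.06 over all promoters.

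**Figure D3:**
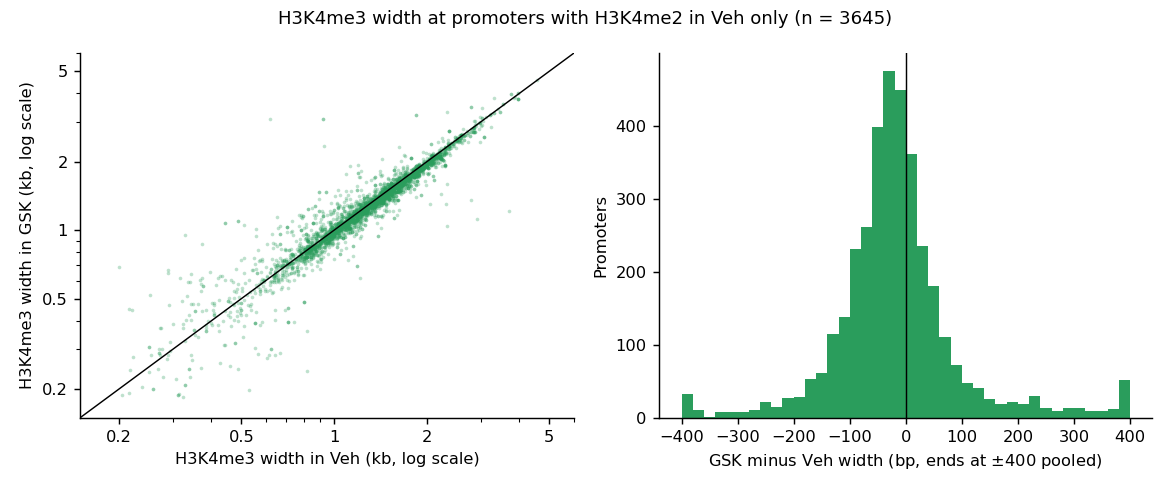
Left, summed H3K4me3 width in kb in Veh (x axis) and GSK (y axis), both on log scales, with 1 point for each of 3645 promoters with H3K4me2 in Veh only and the line of equal width. Right, the number of promoters by GSK minus Veh width in bp, whose median was −23 bp.

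The 10 promoters with the largest width changes each had 1 H3K4me3 peak in either treatment. At the divergent pair Sbds, a ribosome maturation gene, and Tyw1, a tRNA modification gene, H3K4me3 had separate regions of 918 and 619 bp in Veh and 1 region of 3073 bp in GSK. The histone genes H2ac13 and H3c10 shared H3K4me3 of 1848 bp in Veh and 3204 bp in GSK, and Krtcap2 went from 928 to 2337 bp. In the other direction, H3K4me3 at Agpat1, an acyltransferase gene of phospholipid synthesis, was 3699 bp in Veh and 1221 bp in GSK, and at Sipa1, a Rap GTPase-activating protein gene, 2912 and 1124 bp. Pdk1, a pyruvate dehydrogenase kinase gene, had 2783 and 1365 bp, while its H3K4me3 fold was 3.97 and 6.42. At Pdk1 the LSD1 fold was 3.97 and 6.58, and H3K27ac (3.72) and Pol II (3.85) were called in Veh only. Mindy1, a deubiquitinase gene (2334 and 1041 bp), had no other list, and Fgd3, an exchange factor gene for Cdc42 (2305 and 1309 bp), had H3K27ac in both (3.4 and 4.45) and Pol II in Veh only (3.72).

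The other lists in Veh divided the 12085 promoters with Veh H3K4me2 into those that had it in GSK and those that did not. With both Pol II and H3K27ac at the promoter, 1621 of 3224 (50.3%, 48.6 to 52) had no GSK H3K4me2, and with neither, 1337 of 5810 (23%, 21.9 to 24.1). The order held at each level of H3K4me2 peak significance up to a −log10 q of 20, with 43% against 23.5% at 5 to 7 and 30.7% against 9.7% at 7 to 10. Pol II without H3K27ac gave 34.1% (32.3 to 36). The share also went up with the width of Veh H3K4me3, from 23.5% in the narrowest of 5 equal groups (197 to 813 bp) to 43.8% in the widest (1626 to 4751 bp), and Pol II went with it, from 16.3% to 73.1% of the promoters. The median −log10 q of Veh H3K4me2 went down over the same groups, from 6.98 to 5.53, and the groups were not matched on it. With LSD1 at the promoter the share was 30.1% (29.1 to 31.1), and without it 40.6%.

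The split by Pol II and H3K27ac held in the other direction too. Of promoters with GSK H3K4me2, 12.1% (10.7 to 13.7) with both lists had no Veh H3K4me2, and 5.25% (4.65 to 5.93) with neither. With H3K4me2 lists of equal length, 37.4% (35.1 to 39.7) of promoters with Pol II and H3K27ac had H3K4me2 in Veh only, out of those with Veh H3K4me2, and 39.6% (37.4 to 41.9) in GSK only, out of those with GSK H3K4me2. For promoters with neither list these were 14% and 17.8%. A call in 1 treatment alone was thus more frequent at promoters with Pol II and H3K27ac whichever treatment held it. The GSK direction was not split by H3K4me2 peak significance. At equal length 723 promoters with both lists had H3K4me2 in GSK only, against 221 in the full lists, because weak Veh peaks had been cut.

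**Figure D4:**
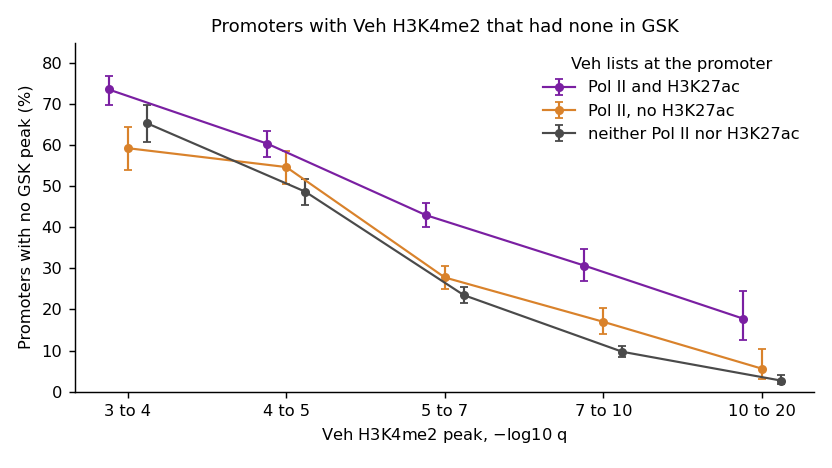
Percentage of promoters with Veh H3K4me2 that had no GSK H3K4me2 (y axis) by the −log10 q of the Veh H3K4me2 peak (x axis) and by the other Veh lists at the promoter; error bars are Wilson 95% intervals. At −log10 q of 7 to 10 the share was 30.7% with Pol II and H3K27ac and 9.7% with neither.

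The X chromosome had the highest share of single chromosomes. Of 195 X-linked promoters with Veh H3K4me2, 116 (59.5%, 52.5 to 66.1) had none in GSK, against 33.1% (32.2 to 33.9) elsewhere, where single chromosomes ranged from 26.3% (chromosome 16) to 39.6% (chromosome 13). The X-linked Veh peaks were less significant, with a median −log10 q of 4.73 against 5.97, while their median fold was 4.9 against 4.65. At matched significance the difference was less clear. The share on X was 80.4% (67.5 to 89) at −log10 q of 3 to 4, 60% (47.4 to 71.4) at 4 to 5, 52.5% (40.2 to 64.5) at 5 to 7 and 30% (14.5 to 51.9) at 7 to 10. Elsewhere it was 67.5% (65 to 70), 54.4% (52.4 to 56.4), 30% (28.6 to 31.5) and 15.2% (13.9 to 16.6), so the intervals were apart at 5 to 7 and overlapped in the other 3 ranges. The X-linked promoters included Zmym3 and Xiap, an inhibitor of apoptosis gene. Zmym3, which encodes a zinc finger partner of the LSD1 complex, had H3K4me2 of fold 5.48, LSD1 of 3.29 and 5.88, and Pol II (3.64) in Veh only. The Veh LSD1 and Pol II peaks at Zmym3 had −log10 q of only 1.37 and 1.56.

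Gene function was described over 27 lists of genes, as the number of genes with a promoter among the 4047 out of the genes with Veh H3K4me2 at any TSS. Over all genes this was 3484 of 10218 (34.1%, 33.2 to 35), counting every gene that begins at a shared TSS, where the 3474 above count 1 gene for each TSS. With H3K4me2 lists of equal length 21.7% had H3K4me2 in Veh only at a promoter and 25.2% in GSK only. Equal length was reached by cutting the weakest Veh peaks. Here and below, a gene in GSK only at equal length can therefore have a Veh peak in the full list. Full lists gave 537 genes with a GSK only promoter, against 1861 at equal length. The lists were chosen with earlier results of these data known and get no test. The lists differ in Pol II and in peak strength, and over all genes with Veh H3K4me2 48.9% had Veh Pol II at the H3K4me2 promoter and the median −log10 q was 5.96.

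Genes of T cell signalling had shares above that of all genes, with weak H3K4me2 in the receptor list, whose median −log10 q was 4.04. It was 6.04 for the JAK-STAT and 5.61 for the NF-κB list. For T cell receptor signalling 7 of 8 genes with Veh H3K4me2 were in the set (87.5%, 52.9 to 97.8: Lck, Zap70, Bcl10, Nfatc1, Sos1, Themis and Cd6). At Lck, the kinase that starts receptor signalling, the H3K4me2 was weak (fold 2.8, −log10 q 3.83), H3K4me3 was 4.64 and 3.94, and Pol II 6.26 and 3.66. Sos1, a Ras exchange factor gene, had H3K4me2 of fold 4.05, LSD1 of 4.35 and 4.08, and no Pol II. Sos1 alone of the 7 stayed Veh only with lists of equal length. For cytokine receptors and JAK-STAT the count was 8 of 13 (61.5%, 35.5 to 82.3) and for the TNF receptor family and NF-κB 10 of 17 (58.8%, 36 to 78.4). Stat5b, the effector of IL-2 signalling, had H3K4me2 of fold 4.01 and −log10 q 7.89, LSD1 of 3.27 and 3.78, and H3K4me3 of 4.97 and 5.71 that narrowed from 1840 to 1395 bp. Its neighbour Stat5a had H3K4me2 of 4.08, LSD1 of 6.41 and 5.88, H3K4me1 in GSK only (3.32) and Pol II in Veh only (4.96), with a GSK H3K4me2 peak 374 bp beyond the window. Nfkb1, encoding the p50 precursor, had H3K4me2 of 4.97 and −log10 q 9.66, and its H3K4me3 went from 1972 to 1641 bp. Nfkbie and Nfkbib, inhibitors of NF-κB, had −log10 q of 9.12 and 7 and H3K4me1 in both treatments, and Traf6, an adaptor ubiquitin ligase gene, had Pol II of 8.55 and 6.42. With lists of equal length, 5 JAK-STAT genes were in Veh only (Il6st, Il10ra, Stat5a, Stat5b and Stat6) and 0 in GSK only, and 6 and 0 NF-κB genes. Other lists had more genes in GSK only at equal length. T cell transcription factors gave 5 in Veh only and 7 in GSK only, H3K4 methyltransferases and demethylases 2 and 6, and homeobox and patterning factors 5 and 13. In the full lists only 2, 2 and 5 of their genes, in that order, had a GSK only promoter. The JAK-STAT genes named in this comparison were chosen after their values were seen.

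Among effector molecules and cytokines 5 of 7 were in the set (71.4%, 35.9 to 91.8: Prf1, Ccl3, Ccl4, Unc13d and Stx11). Prf1, the perforin gene, had H3K4me2 of fold 3.65, H3K27ac in Veh only (5.6) and Pol II of 5.43 and 3.77. Ccl4 and Ccl3, neighbouring chemokine genes, had H3K4me2 of 4.04 and 4.34, and at Ccl3 LSD1 (3.75) and H3K4me3 (3.85) were called in GSK only. Of inhibitory receptors 4 of 8 were in the set (50%, 21.5 to 78.5: Lag3, Lair1, Cd200r1 and Cd96). Lag3 had H3K4me2 of fold 3.74 and −log10 q 7.1 and, beside it, H3K4me3 alone (3.93 and 4.17, 1826 and 1750 bp). Cd96 kept Pol II (8.25 and 4.51) and its H3K4me3 went from 1421 to 1730 bp. Memory and progenitor genes gave 3 of 8 (37.5%, 13.7 to 69.4: Lef1, Eomes and Foxp1). The intervals of these last 2 lists included the share of all genes. At Eomes, a T-box factor gene of memory cells, H3K4me2 was weak (3.06, −log10 q 3.45). LSD1 (5.37 and 5.16), H3K4me3 (2.77 in both) and Pol II (3.38 and 3.23) were kept there, and H3K27ac was in Veh only (3.21). The Pol II peaks at Eomes had −log10 q of only 2.26 and 2.4. Lef1, with H3K4me2 of fold 2.46, had broad H3K4me3 of 3026 and 3121 bp. T cell transcription factors (10 of 28) and chemokine receptors and adhesion (2 of 6, Ccr4 and Itga1) lay near the share of all genes. Ets1 had Pol II of 2.98 and 5.38 (−log10 q 1.74 and 12.5), and Tcf3 kept H3K27ac (5.54 and 6.34). The interferon response list gave 12 of 21, led by Irf3 (−log10 q 8.56), Gbp3 (7.78) and Irf7 (5.82). Irf7 had the highest Pol II of these, at 10.2 and 9.06. With lists of equal length, 1 effector gene was in Veh only (Unc13d) and 1 in GSK only (Ctsw). For inhibitory receptors these were 2 (Lag3 and Lair1) and 0, and for memory and progenitor genes 0 and 1 (Myb). The interferon response list gave 5 and 3. In the full lists no effector or memory gene had a GSK only promoter. Ctsw and Myb thus had Veh H3K4me2 that the cut removed. The interferon list had 2 genes with a GSK only promoter in the full lists.

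Genes of protein synthesis and energy supply made up the next groups. Cytosolic ribosomal proteins gave 27 of 38 (71.1%, 55.2 to 83), and all 38 had Veh Pol II at the promoter. Rpl18 (H3K4me2 fold 4.45, −log10 q 10.3), Rplp1, Rps28 and Rps10 each kept Pol II, at 6.96 and 6.79, 9.45 and 9.55, 5.76 and 5.38, and 7.46 and 5.3, and each had H3K27ac in Veh only, at 3.95, 3.87, 4.11 and 4.03. Mitochondrial ribosomal proteins gave 32 of 57, subunits of respiratory complex I 15 of 27, proteasome subunits 15 of 25, aminoacyl tRNA synthetases 10 of 19 and translation initiation factors 14 of 27, and 82.5% to 94.7% of their genes had Pol II there. Ndufa11, with −log10 q of 11.8 among the highest, had a GSK H3K4me2 peak 15 bp beyond the window. Fars2, the mitochondrial phenylalanyl tRNA synthetase gene, had −log10 q 11.3 and kept LSD1, H3K4me3, H3K27ac and Pol II, the last at 7.23 and 5.49. Eif4e, the cap-binding factor gene, had H3K4me1 in GSK only (5.7) and H3K27ac in Veh only (3.77). Glycolysis and nutrient transport gave 6 of 7 (Hk1, Gapdh, Ldha, Ldhb, Slc16a1 and Slc3a2), with Pol II at 71.4% of those genes. At Gapdh and Ldha Pol II was among the highest, 12.5 and 10.5, and 13 and 10.5, LSD1 was in GSK only (3.61 and 3.18) and H3K27ac in Veh only (3.54 and 3.87). With lists of equal length these groups had genes on both sides, with 10 ribosomal protein genes in Veh only and 7 in GSK only, 14 and 8 for the mitochondrial ribosome, and 5 and 5 for complex I. In the full lists 3, 4 and 3 genes of these groups, in that order, had a GSK only promoter.

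Clustered histone genes gave 15 of 18, with Pol II at all 18 and a low median −log10 q of 3.72. H4c17 and H4c18 had the highest Pol II of the named promoters (20.6 and 18.5, and 20.3 and 18), and LSD1 of 9 and 8.71, and 7.96 and 11.3. Cell cycle and DNA replication gave 14 of 33 (with Pol II at 84.8% of those genes), DNA repair 20 of 42 (78.6%) and Zfp zinc finger genes 107 of 253 (42.3%, 36.4 to 48.5). Of these, Cdt1 and Cdc45, replication licensing and helicase genes, kept LSD1, H3K27ac and Pol II, and Ogg1, an oxidised guanine glycosylase gene, had LSD1 in GSK only (4.13) and H3K4me1 in Veh only (2.95). With lists of equal length the replication list had 12 genes in GSK only, against 4 in Veh only, and the Zfp genes were even at 43 and 43. In the full lists 6 replication and 12 Zfp genes had a GSK only promoter, against 14 and 107 with a Veh only one. At Zfp57 H3K4me3 was in Veh only as well (4.18).

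Chromatin regulators had shares whose intervals included that of all genes. The LSD1 complexes and partners list gave 6 of 20 (30%, 14.5 to 51.9: Zmym3, Gfi1, Zeb1, Mta1, Mta2 and Rbbp4), H3K4 methyltransferases and demethylases 4 of 16 (25%, 10.2 to 49.5: Kmt2d, Setd1a, Ash2l and Men1), and Polycomb and DNA methylation 8 of 25 (32%, 17.2 to 51.6). Zeb1, a repressor, had LSD1 of fold 9.6 in Veh and 3.82 in GSK, with a GSK H3K4me2 peak 184 bp beyond the window. Kmt2d, a methyltransferase of enhancers, had LSD1 of 6 and 4.7 and kept H3K27ac (4.31 and 4.53) and Pol II (3.87 and 3.39). Tet2, a 5-methylcytosine oxidase gene, had LSD1 of 4.58 and 7.48, and Jarid2, a PRC2 partner gene, had H3K4me3 of 4554 and 4576 bp and H3K27ac in Veh only (5.91). BCL2 family and caspases gave 4 of 15, with Fas at −log10 q 9.62, and Pmaip1 with Pol II of 12 and 7.3. Homeobox and patterning factors had the lowest share, 15 of 66 (22.7%, 14.3 to 34.2), and Pol II at 9.09% of those genes. Hoxb7 (fold 5.05) had H3K4me3 of 5.22 and 6.11, and Pax6 (5.52) had H3K4me1 in Veh only (4.6) and no H3K4me3. MicroRNA genes gave 35 of 111, with Mir1956 sharing the H3K4me2 peak of Eif4e, and the 4 olfactory receptor genes with Veh H3K4me2 (Olfr525, Olfr763, Olfr9 and Olfr94) were all Veh only, with no H3K4me3 or Pol II.

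**Figure D5:**
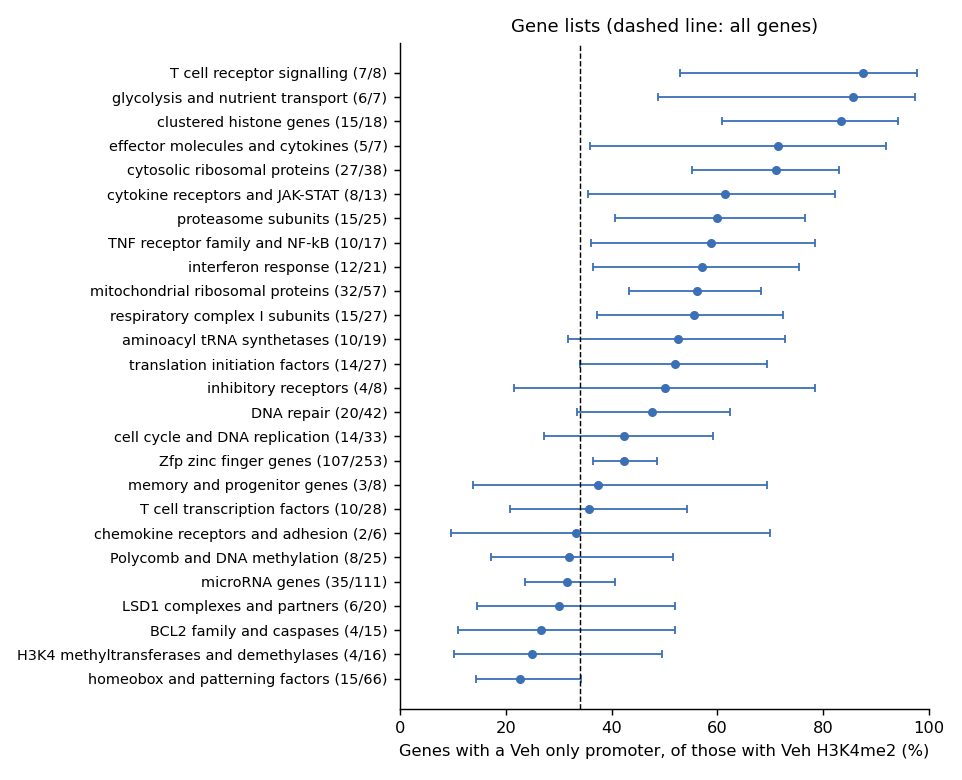
Percentage of genes with a Veh only H3K4me2 promoter out of those with Veh H3K4me2 at any TSS (x axis), by gene list with both numbers in brackets, for lists with at least 5 such genes; bars are Wilson 95% intervals and the dashed line is all genes (34.1%). T cell receptor signalling (7 of 8) is at the top and homeobox and patterning factors (15 of 66) at the bottom.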

How the data were processed

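Peak lists of 12 ChIP-seq libraries, 1 for each of 6 antibodies and 2 treatments, were used, and the 4 input samples carried no peak list and were not analysed here. Before deposit, the authors kept uniquely mapped reads (Bowtie2, mm10) without duplicates (Samtools) and called peaks per library with MACS2, using a p-value of 0.001. The submitters' processing notes also name bedtools and edgeR. Each peak has 3 deposited values, a fold enrichment (a ratio, ChIP pileup divided by local background), a −log10 p and a −log10 q, and these values were used as deposited. The histone lists begin just above a −log10 q of 3. The LSD1 and Pol II lists hold lower values, such as 0.868 for GSK Pol II at Ccdc102a and 1.19 for Veh LSD1 at Kat7. A single LSD1 or Pol II call, kept or in 1 treatment only, can rest on such a weak peak. Peak lists hold no read numbers, so depth is unknown from them. The study states fewer unique read pairs in GSK than in Veh for LSD1, H3K4me2 and H3K27ac, and more for H3K4me1, H3K4me3 and Pol II. These read numbers were not used, and their part in the differences was not tested. The authors' choice of cutoff and the depth of ChIP and input both set the length of a list.

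Windows of 1 kb were laid to each side of the 31603 distinct TSSs of curated RefSeq transcripts (GRCm38.p6, 26143 genes), and a peak counted from 1 overlapping base. The printed sequences came from the RefSeq promoter table of the same build and were identical to the genome. CpG and motif shares used the same stretch cut from the genome at every TSS. Counts used Python 3.11.15, numpy 2.4.6 and pandas 2.3.3, and overlaps, widths and shares were tested on simulated data. Shares have Wilson 95% intervals, and medians have intervals from order statistics. A median or a share rests on promoters of 1 library pair, so nothing here measures the spread between cultures.

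Members, gene lists and named genes were chosen with earlier results of these data known. Named were the 8 promoters of highest Veh H3K4me2 −log10 q, the 5 largest gains and losses of H3K4me3 width, and the 5 highest folds of LSD1 and Pol II called in 1 treatment only. The 5 highest GSK only folds of H3K4me1 and of H3K27ac and up to 4 genes per gene list by −log10 q were added, and symbols of predicted genes were left out. Not every gene so chosen is described. The list of clustered histone genes was matched by newer symbols after its older ones had found none. Alternatives were H3K4me2 lists of equal length (strongest peaks by −log10 q, or by −log10 p for the other antibodies), a −log10 q of at least 5, windows of 500 bp, overlaps of 200 bp, no GSK peak within 2 kb and 1 window per gene, and other ways to measure H3K4me3 width.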

Additional observations from a re-analysis of the deposited data

How the results depend on the processing

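No paired analysis was possible because each antibody and treatment had 1 library, and only the inputs carry replicate numbers. For the same reason no replicate could be left out. Of 171 recomputed values, 112 kept their direction and moved by less than their counting interval (counts within 1.5 times), 58 moved further and 1 reversed, and the causes were not tested. With H3K4me2 lists of equal length there were 1760 promoters, with 72.3% under GSK LSD1, 48.1% and 58.5% under Veh and GSK H3K4me1, 43% under Veh H3K27ac (net −24.9 percentage points), 58.3% and 47.6% under Veh and GSK Pol II, 37.4% and 14% Veh only with and without Pol II and H3K27ac, and 172 genes summed over the lists (412 by the rule). A −log10 q of at least 5 in both lists left 3654 promoters, of which 1713 were among the 4047, with Veh and GSK shares of 66% and 76.1% for LSD1 (85.8% kept by the rule, 88.9% here), 53.7% and 64.8% for H3K4me1, 93.8% and 95.5% for H3K4me3, 37.1% and 14.1% for H3K27ac (net −22.9) and 55.2% and 45.5% for Pol II, and 67.4% and 32.3% Veh only in the split. The same limit for Veh peaks alone gave 1713 promoters, 72.4% under GSK LSD1, 47.9% and 58.3% under H3K4me1, 93.2% under GSK H3K4me3, 42.7% under Veh H3K27ac (net −24.9), 58.4% and 47.8% under Pol II, 37% and 13.8% in the split and 163 genes. Windows of 500 bp gave 46.7% and 57.9% for H3K4me1, 40.6% and 14.7% for H3K27ac (net −26), 58.5% and 48.9% for Pol II and 52.2% in the split. Overlaps of 200 bp gave 45% and 55.7% for H3K4me1 and 43.7% and 17.1% for H3K27ac, and with no GSK peak within 2 kb the split gave 48%. Equal lengths for the other antibody gave a net H3K4me1 change of 3.43 (46.7% in GSK), a reversed net H3K4me3 change of −0.395 (90.3% in GSK), and a net H3K27ac change of −1.21 (19.9% in Veh), and put 72.6% and 19.1% of the H3K4me2 bases under GSK H3K4me3 and H3K4me1. The H3K4me3 width difference was −12 bp over window bases. The split under each setting, the gene lists under all settings but equal length, the comparison of both directions under equal length and the width with equal H3K4me3 lists were chosen after seeing the data.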
